A study of Mus musculus with 4 samples.

Results

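Of the 12925 regions in which both pSTAT3 ChIP libraries had a reproducible peak, 479 (3.71%) had their midpoint within 25 kb of the start of an annotated microRNA gene, and these 479 regions are described here. They were chosen by position alone: a region qualified when at least 1 transcript in the authors' table had a name of the form Mir plus a number, or beginning Mirlet, and started within 25 kb. The 479 regions lay beside 356 microRNA genes. The same naming pattern also took in 3 long host transcripts (Mir99ahg, Mir143hg and Mir142hg), and 1 region qualified through such a name alone. A further 92 regions had a microRNA in the table only beyond 25 kb and were not counted.

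The study mapped STAT3 phosphorylated at tyrosine 705 in primary cortical oligodendrocyte progenitor cells of the C57BL/6 strain, the dividing precursors of myelin-forming oligodendrocytes. Their medium held bFGF at 20 ng/ml beside PDGF-AA at 10 ng/ml, and all received the cytokine CNTF (100 ng/ml) for 15 min before chromatin was crosslinked; untreated cells were not analysed here. There were 2 ChIP libraries, replicates 1 and 2, and 2 input libraries, which were not analysed here. Lysed cells were pooled before sonication, so the spread between the ChIP libraries may be technical, and it cannot be told apart whether a lower signal means fewer cells with STAT3 at a site or less STAT3 per cell. The labels give no sex or age for the mice. As a check of the cell label by position only, 5 of 6 genes that mark these cells (Pdgfra, Cspg4, Olig1, Olig2 and Sox10, but not Ptprz1) had a reproducible region within 25 kb of a start, beside 32.6% of protein-coding genes. ChIP-seq does not measure RNA, so nothing here shows whether a microRNA was made.

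MicroRNAs are short RNAs that pair with messenger RNAs, mainly through bases 2 to 8 of the microRNA, called the seed, and lower their translation or stability. They are cut from a hairpin in a longer primary transcript, which may be a long noncoding RNA, a cluster of several hairpins or the intron of a protein-coding host gene. The start listed for a microRNA is the 5′ end of its hairpin, not of the primary transcript, so a promoter can lie many kilobases upstream. STAT3 is the transcription factor that CNTF activates through the gp130 and LIF receptor pair. Once phosphorylated it binds DNA as a dimer at palindromic TTC-GAA sites, and in the oligodendrocyte lineage microRNAs help to end proliferation and start myelination.

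The mature microRNAs on which the results turn are shown with the seed in capitals, 5′ to 3′, as RefSeq gives them for build GRCm38.p6. Each was chosen because its gene lay beside a strong region, beside many regions, or in a fixed list of lineage or STAT3-linked microRNAs.
miR-9-5p: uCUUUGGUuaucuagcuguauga
miR-9-3p: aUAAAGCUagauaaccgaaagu
miR-21a-5p: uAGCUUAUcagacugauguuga
miR-338-3p: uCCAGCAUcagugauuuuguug
miR-219a-5p: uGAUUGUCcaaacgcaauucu
miR-99b-5p: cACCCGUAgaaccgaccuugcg
miR-99a-5p: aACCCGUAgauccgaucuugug
let-7e-5p: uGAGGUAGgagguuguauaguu
let-7c-5p: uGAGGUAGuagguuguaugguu
let-7b-5p: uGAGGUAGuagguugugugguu
miR-125a-5p: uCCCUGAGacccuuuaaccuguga
miR-125b-5p: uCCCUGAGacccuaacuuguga
miR-200b-3p: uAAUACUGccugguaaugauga
miR-429-3p: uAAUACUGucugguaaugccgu
miR-200a-3p: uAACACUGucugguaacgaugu
miR-128-3p: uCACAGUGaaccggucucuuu
miR-155-5p: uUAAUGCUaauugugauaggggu
miR-146b-5p: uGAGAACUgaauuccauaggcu
miR-148b-3p: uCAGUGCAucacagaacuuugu
miR-92b-3p: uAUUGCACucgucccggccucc
Several of these seed families are spread over more than 1 locus, and not every gene of a family had a region. Over all annotated microRNA genes 33.6% had a region within 25 kb. Of 58 seeds shared by 3 or more genes in the sequence table, 17 had 3 or more genes with a region and 17 had none; those named next were picked with their values in view. The miR-9-5p seed CUUUGGU belonged to 3 microRNA genes in the sequence table and all 3 had a region within 25 kb. The let-7 seed GAGGUAG belonged to 13 genes, of which 7 had one, the miR-125 seed CCCUGAG to 6, of which 4 had one, and the miR-99 seed ACCCGUA to 3, of which 2 had one. The seed AAUACUG of miR-200b, miR-200c and miR-429 belonged to 3 genes and all 3 had a region; that beside Mir200c and Mir141 had 9.82-fold and 9.16-fold enrichment in replicates 1 and 2. The seed AAAGUGC of miR-17, miR-20 and miR-93 belonged to 7 genes, of which 3 had a region, and Mir17 and Mir20a were not among them. Genes of 1 cluster share a region, so these counts are of genes and not of independent binding events.

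The regions near microRNAs had enrichments much like those of all reproducible regions. Strength is given as the authors' fold enrichment, the ratio of the fragments stacked at a peak's summit to the local background as the peak caller computed it, for the strongest peak of each library that overlaps the region. Replicate 1 gave a median of 10.1-fold over the 479 regions (range 2.43 to 41.5) and replicate 2 a median of 7.59-fold (range 2.18 to 38.5). Over all 12925 regions the medians were 10.4-fold and 7.51-fold. Taking the lower value of both libraries for each region, the median was 7.51-fold near microRNAs and 7.48-fold over all regions. The enrichment reached 10-fold in both libraries in 158 of 479 regions (33.0%), against a background of 31.1% of all regions, and 20-fold in 36 (7.52%) against 7.76%. The irreproducible discovery rate (IDR), the authors' measure of how far the replicates failed to rank a region alike, was 0.01 or below in 371 (77.5%) against 79.3%. Replicate 1 had the higher fold in 449 of the 479 (93.7%) against 95.1%. That direction ran through the whole data set, and replicate 1 had the deeper background of both libraries, so a fold is read within a library and not between them.

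**Figure D1:**
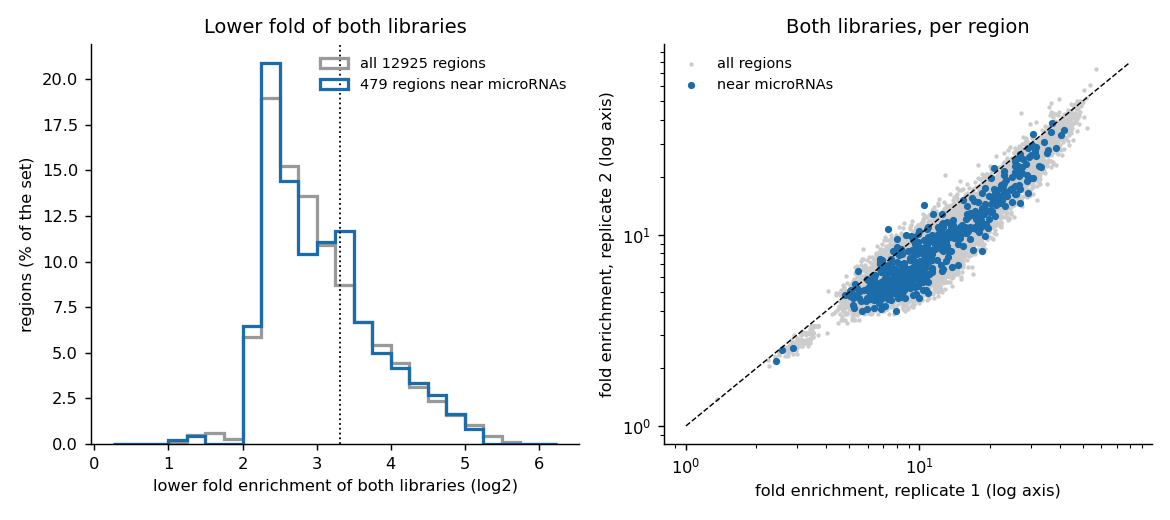
Left, share of regions (%) by the lower fold enrichment of both libraries on a log2 axis, for all 12925 regions (grey) and the 479 near microRNAs (blue), with 10-fold dotted. Right, fold enrichment in replicate 1 and replicate 2 on log axes, 1 point per region, with equality dashed; the histograms overlie each other, and 449 of the 479 points lie below the dashed line.

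Proximity to a microRNA start was spread over the whole window. The region lay upstream of its nearest microRNA in 255 cases and downstream in 223, at a median distance of 10.9 kb. Within 10 kb of a microRNA start there were 223 regions, within 5 kb 117, and within 1 kb 30. Of the 30 closest regions, 13 (43.3%) reached 10-fold in both libraries, beside 31.1% of all regions. Their medians were 11.3-fold in replicate 1 and 8.32-fold in replicate 2, beside 10.4-fold and 7.51-fold over all regions. With so few regions, this difference was not tested. For 128 of the 479 regions (26.7%) the microRNA was the nearest listed start, when starts of the 3 long host transcripts were left out. Another gene, again apart from these host transcripts, started within 1 kb of 184 regions (38.4%), against a background of 23.8% of all regions. Among the 7078 regions that had a protein-coding start within 25 kb the share was 40.0%, close to that of the members. Another reproducible region lay within 25 kb of 269 members (56.2%), against 45.7% of all regions and 49.8% of those with a protein-coding start within 25 kb.

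**Figure D2:**
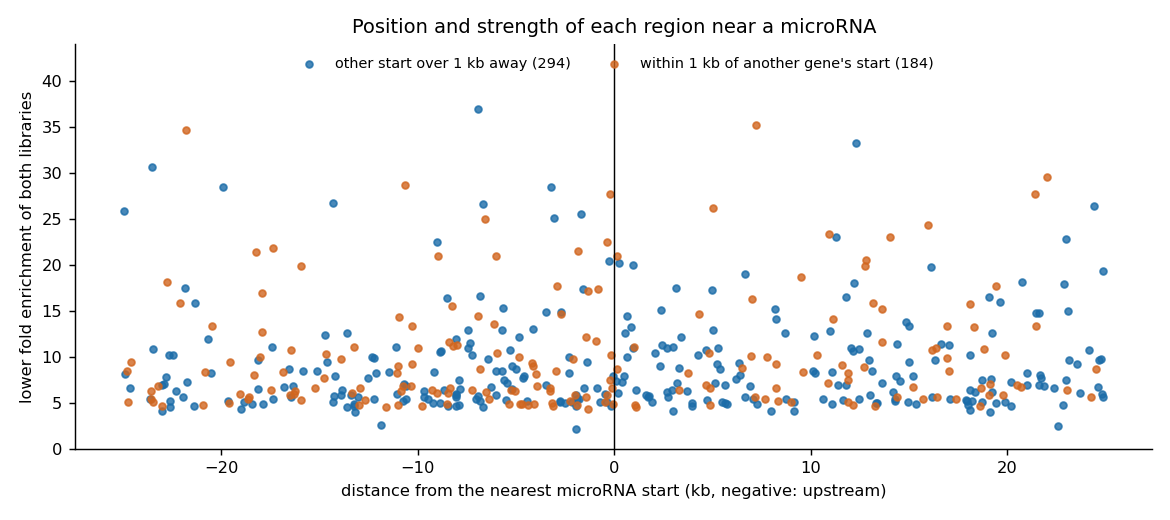
Distance in kb of each region from its nearest microRNA start (negative is upstream) against the lower fold enrichment of both libraries, 1 point per region, in orange where another gene starts within 1 kb (184 regions). Starts of the long host transcripts Mir99ahg, Mir143hg and Mir142hg did not count as another gene. The 1 region that qualified through a host name alone is not drawn. Strong regions occur at all distances on both sides of the microRNA.

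Seen from the genes, microRNAs had a region in about the same share as protein-coding genes, though the shares were not counted alike. RefSeq lists 1180 microRNA genes on chromosomes 1 to 19, X and Y, and 397 of them (33.6%) had a region within 25 kb of the start, beside 32.6% of 21887 protein-coding genes. The microRNAs were placed by RefSeq coordinates, with 1 start each. Protein-coding genes were matched by name to the authors' list, with any listed transcript start, so renamed genes were missed. Matched by name, 356 of the 1180 microRNA genes had a region. Within 5 kb the count was 120 microRNA genes (10.2%). A peak of the replicate 1 list lay within 25 kb of 706 microRNA genes and a peak of the replicate 2 list within 25 kb of 592. For 185 microRNAs both lists held a peak but no reproducible region was called, for 124 only replicate 1 and for 10 only replicate 2 held a peak, and 464 had no peak in either list. A pair of very large microRNA clusters were empty: neither the 71 microRNAs within Sfmbt2 on chromosome 2 nor the 60 between Meg3 and Mirg on chromosome 12 had a region, or a peak in either list.

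The authors' table did not name every microRNA. Of the 397 RefSeq microRNA genes with a region, 41 were not in it under that name, among them Mir9-1, Mirlet7e, Mirlet7f-1 and Mir142. RefSeq positions would add 31 regions to the 479 and drop the 1 that qualified through a host name, giving 509. The strongest of these lay 19.0 kb from Mir7055 on chromosome 7 and had 40.9-fold enrichment in replicate 1 and 39.8-fold in replicate 2, a lower value above that of every member.

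The strongest member lay 6939 bp upstream of Mir6715 (chr19:55185095-55186383), a microRNA inside Tectb, the gene of an inner-ear matrix protein. It had 36.9-fold enrichment in replicate 1 and 38.5-fold in replicate 2. The next lay over the start of Spaca6 (chr17:17837485-17838553), 7831 bp downstream of the Mir99b start, with 41.5-fold and 35.2-fold. The third was 181 bp from the start of the zinc transporter gene Slc39a1 and 21796 bp upstream of Mir7012, with 36.5-fold and 34.7-fold. In each of these 3 regions the lower of both values was at least 34.7-fold, and the nearest start belonged to another gene.

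A region 12307 bp downstream of Mir7689, within the neuronal sorting receptor gene Sorcs2, had 40.2-fold enrichment in replicate 1 and 33.3-fold in replicate 2. Within Notch1, the receptor gene whose signalling holds progenitors back from differentiation, a region 23523 bp upstream of Mir6996 had 34.1-fold and 30.6-fold. The region that qualified only through a host name (chr16:77236774-77238254) lay beside a start of Mir99ahg, the long noncoding host of miR-99a and let-7c, and had 30.7-fold and 33.7-fold. Another 5 of the 12 strongest were beside the Mir200a, Mir200b and Mir429 cluster, Mir339, Mir6347, Mir7672 and Mir7676-2. Their folds ran from 29.2 to 35.7 in replicate 1 and from 27.6 to 29.6 in replicate 2. The miR-200 family is best known for keeping cells epithelial by repressing Zeb factors; its region had 30.4-fold and 29.6-fold enrichment and lay 347 bp upstream of the noncoding gene Gm16008, 21997 bp from the nearest hairpin of the cluster.

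Close to the hairpin itself, several of the strongest regions sat on the start of a host gene. At Mir7672 the region lay 226 bp upstream of the hairpin and 49 bp from the start of its host Pde12, a mitochondrial RNA-trimming enzyme, with 31.3-fold enrichment in replicate 1 and 27.7-fold in replicate 2. At Mir207 it lay 373 bp upstream of the hairpin and 15 bp from the start of the host Dnaja1, an Hsp40 co-chaperone, with 33.1-fold and 22.5-fold. At Mir1904 it lay 832 bp upstream of the hairpin and 125 bp from a start of the cyclic AMP phosphodiesterase Pde4d, with 24.7-fold and 17.4-fold. Replicate 1 was higher at all 3.

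Others of these close regions had no start of a host gene within 1 kb. For some of them a host start lay only slightly farther away, or a gene that is not the host started within 1 kb. A region 267 bp upstream of Mir6352 was 18044 bp from the nearest other start, that of the ephrin receptor Epha4, and had 22.9-fold enrichment in replicate 1 and 20.4-fold in replicate 2. A region 964 bp downstream of Mir148b, in the coatomer gene Copz1, had 24.8-fold and 20.0-fold. Mir7671 had 2 strong regions beside Irf1, the interferon regulatory factor gene: 1 was 216 bp downstream of the hairpin, with 26.6-fold and 20.2-fold, and the other was 130 bp from the Irf1 start, with 27.8-fold and 25.0-fold. Regions upstream of Mir6402 (29.4-fold and 25.5-fold), Mir6387 (26.4-fold and 25.1-fold) and Mir3089 (23.1-fold and 21.5-fold), at Mir8112 (27.5-fold and 21.0-fold), and downstream of Mir8119 beside the kinase gene Lck (20.9-fold and 17.5-fold), were of like strength. The Mir6402 region was 1264 bp from a start of its host Elavl2, and the Mir8119 region 1152 bp from a start of its host Lck. The Mir3089 region was 716 bp from a start of Gm14488.

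Most microRNAs near a region lay within another transcript. Of the 356, 249 were inside a listed gene on the same strand, protein-coding for 213, 34 were overlapped only by a gene on the other strand, and 73 lay in no other listed gene. For 62 microRNAs a region sat within 1 kb of a start of the host gene, and 69 regions did so. Any listed transcript of the host counted here, also one that begins past the hairpin and does not contain it. The strongest was that of Spaca6, which lay 7831 bp downstream of the Mir99b start and 262 bp upstream of a Spaca6 start. That Spaca6 start therefore lies past the Mir99b hairpin. Srebf1, the sterol-responsive regulator of lipid synthesis, hosts Mir6921 and Mir6922 and had a region 72 bp from its start with 25.6-fold enrichment in replicate 1 and 21.4-fold in replicate 2. The RNA helicase gene Ddx5, host of Mir3064, had 1 at 116 bp with 26.8-fold and 21.0-fold. Pdgfra, the receptor through which PDGF-AA drives these cells to divide, hosts Mir7025; of 4 regions within 25 kb of that hairpin, the 1 at 240 bp from the Pdgfra start had 10.3-fold and 8.50-fold, the highest of the 4 in both libraries.

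At Mir21a, a microRNA long known as a target of STAT3, there were 3 regions. Mir21a is expressed from its own promoters within the last part of Vmp1, an autophagy gene. The nearest region (chr11:86586690-86587415) lay 2894 bp upstream of the hairpin and 58 bp from the start of a short listed Vmp1 transcript, with 22.4-fold enrichment in replicate 1 and 17.7-fold in replicate 2. The other two lay 4273 bp downstream, with 15.8-fold and 10.2-fold, and 12244 bp upstream, with 9.83-fold and 10.1-fold. Replicate 1 was higher at the nearest and the downstream region, and replicate 2 at the far upstream one. Beyond these regions, 5 peaks of replicate 1 and 1 of replicate 2 lay within 25 kb.

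The other STAT3-linked microRNAs differed widely. Of 12 genes in that list, 4 had a region, which is 33.3% beside the 33.6% of all annotated microRNAs. Within 5 kb 3 of the 12 had 1, beside 10.2% of all annotated microRNAs. Mir155, an immune-response microRNA, had 1 at 21465 bp, 137 bp from the start of the mitochondrial ribosome gene Mrpl39, with 20.4-fold enrichment in replicate 1 and 13.4-fold in replicate 2. Mir146b had 1 at 3126 bp upstream, 976 bp from a start of Cuedc2, with 10.0-fold and 4.70-fold. The IDR of that region was 0.034, whereas 79.3% of all regions had 0.01 or below. The 6 listed genes of the Mir17 cluster, which favours proliferation of oligodendrocyte progenitors, share 1 locus and had no region; their strongest peaks were 4.20-fold in replicate 1 and 3.84-fold in replicate 2. Mir181b-1 had peaks of 5.07-fold and 3.84-fold and no region. Mir223, a myeloid microRNA, had no peak in either list.

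All 3 genes for miR-9, a microRNA of neural progenitors and neurons, were among the 5 microRNA genes with 6 or more regions within 25 kb. The other two were Mir3093, which shares the Mir9-1 locus, and Mir1897. Altogether 22 regions lay beside the miR-9 genes, and 21 of them passed an IDR of 0.01, as did 79.3% of all regions. Mir9-1 (chromosome 3) had 7 regions. Replicate 1 ranged over them from 8.79-fold to 25.7-fold with a median of 16.1, and replicate 2 from 9.96-fold to 22.5-fold with a median of 10.8. The strongest by the lower value lay 9418 bp upstream (chr3:88204810-88207550), with 21.0-fold and 22.5-fold, 633 bp from a start of the noncoding host Gm3764. The highest in replicate 1 lay 6576 bp downstream, with 25.7-fold and 16.3-fold.

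Mir9-2 (chromosome 13) had 9 regions within its noncoding host C130071C03Rik and around it. Replicate 1 ranged from 7.17-fold to 16.7-fold and replicate 2 from 5.38-fold to 11.0-fold, so none was as strong as the best at Mir9-1. The nearest lay 1004 bp downstream of the listed hairpin start (chr13:83739150-83740471) and had 13.9-fold and 11.0-fold. The highest in replicate 1 lay 23484 bp upstream, with 16.7-fold and 10.8-fold.

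Mir9-3 (chromosome 7) had 6 regions, with folds from 8.25 to 26.8 in replicate 1 and from 4.93 to 18.1 in replicate 2. The strongest lay 20741 bp downstream, with 26.8-fold and 18.1-fold, and 1 lay 453 bp upstream of the hairpin with 10.7-fold and 5.94-fold. Replicate 1 was higher in 5 of these 6, in 8 of the 9 at Mir9-2 and in 5 of the 7 at Mir9-1.

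Mir1897 lies in the noncoding transcript around Sox2, the gene of a neural stem cell transcription factor, and had 9 regions. Their folds ran from 5.11 to 29.9 in replicate 1 and from 4.08 to 19.7 in replicate 2. The strongest was 16101 bp downstream of Mir1897 with 29.9-fold and 19.7-fold, and another lay 484 bp upstream of the Sox2 start with 23.3-fold and 14.1-fold. Of the 9 regions 5 had an IDR of 0.01 or below, beside 79.3% of all regions. The loci with 5 regions were Mir6996 (Notch1) and Mir6921 with Mir6922 (Srebf1), whose medians were 15.7-fold and 16.4-fold in replicate 1.

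**Figure D3:**
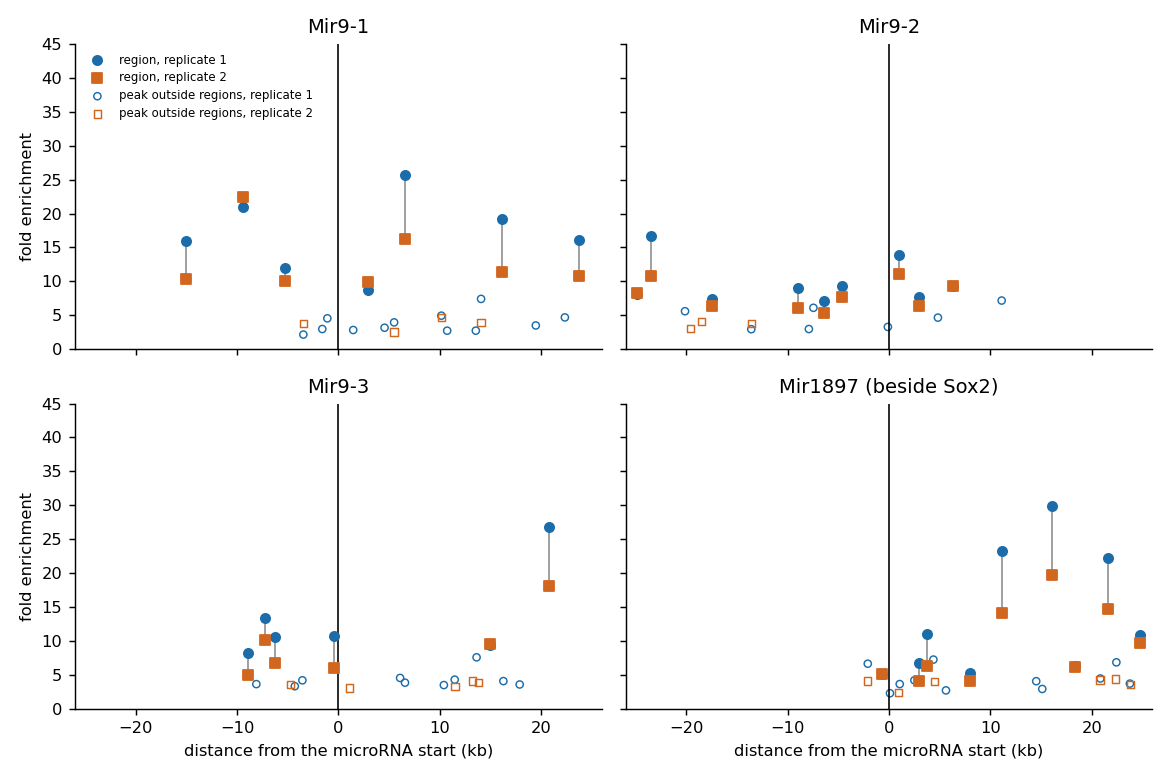
Fold enrichment of every region (filled) and of every peak outside the regions (open) within 25 kb of Mir9-1, Mir9-2, Mir9-3 and Mir1897, against distance from the microRNA start in kb, for replicate 1 (circles) and replicate 2 (squares), with grey lines joining the libraries. The 7, 9, 6 and 9 regions lie on both sides of each start, and the open peaks lie under 10-fold.

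The brain-enriched list had 12 of 22 genes with a region (54.5%, beside the 33.6% of all annotated microRNAs), and 3 of the 12 were the miR-9 genes. Within 5 kb the count was 7 of 22, the 3 miR-9 genes among them, beside 10.2% of all annotated microRNAs. At Mir128-2, a neuronal microRNA within Arpp21, the region lay 570 bp downstream of the start with 21.0-fold enrichment in replicate 1 and 12.5-fold in replicate 2. Mir124a-3, of the microRNA most abundant in neurons, had 1 region with 15.9-fold and 14.1-fold. Mir124a-1 had no peak in either list, and Mir124a-2 had a peak in replicate 1 only, at 4.72-fold. Mir137 had 1 region 2304 bp upstream with 11.3-fold and 8.23-fold. Mir7b had 10.9-fold and 4.95-fold, and the activity-induced pair Mir132 and Mir212 had no region and peaks of 4.17-fold and 4.86-fold.

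The oligodendrocyte lineage list had 6 of 16 genes with a region within 25 kb (37.5%, beside 33.6% of all annotated microRNAs), and 0 of 16 within 5 kb, beside 10.2%. Mir338, which with miR-219 promotes oligodendrocyte differentiation, had the strongest. Its region (chr11:120039326-120040283) lay 24942 bp upstream of the hairpin and 1978 bp from a start of the host Aatk, a kinase gene of the nervous system, with 31.5-fold enrichment in replicate 1 and 25.8-fold in replicate 2. It was the farthest member from its microRNA. Mir219a-1 had a region 6815 bp upstream, 95 bp from a start of the retinoid receptor gene Rxrb, with 12.4-fold and 8.70-fold. Mir219a-2 had no region, with strongest peaks of 6.13-fold and 7.65-fold. Mir23a and Mir27a, neighbours in 1 cluster, shared 3 regions of 6.27-fold to 9.49-fold in replicate 1 and 4.76-fold to 6.31-fold in replicate 2. Of the 3, 1 passed an IDR of 0.01, beside 79.3% of all regions. Mir145a had 12.5-fold and 10.2-fold, and Mir7-1 6.30-fold and 4.61-fold.

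Next to the 25 kb limit, the 3 last members inside were a region 24.891 kb from Mir5124a with 23.5-fold and 19.3-fold, 1 at 24.898 kb from Mir9-2 with 8.08-fold and 8.34-fold, and that of Mir338. The 3 first outside were regions 25.104 kb from Mir7041 with 36.7-fold and 31.9-fold, 25.172 kb from Mir6991 with 6.70-fold and 4.58-fold, and 25.647 kb from Mir7054 with 14.6-fold and 11.9-fold. Strong and weak regions stood on both sides.

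The let-7, miR-99 and miR-125 genes are arranged in the genome as related clusters, and 7 of 12 listed let-7 genes (58.3%, beside 33.6% of all annotated microRNAs) had a region, in 4 separate loci. Within 5 kb the count was 3 of 12, beside 10.2% of all annotated microRNAs. The let-7 microRNAs rise as progenitors differentiate and are held back by Lin28 in dividing cells. The cluster of Mir99b, Mirlet7e and Mir125a on chromosome 17 had 1 region, that of Spaca6 at 41.5-fold and 35.2-fold. Mir99a and Mirlet7c-1 on chromosome 16 shared 2 neighbouring regions, 4833 bp and 4128 bp upstream of Mir99a, with 19.9-fold and 18.1-fold in replicate 1 and 12.2-fold and 13.0-fold in replicate 2. In the same order, these lay 263 bp upstream and 442 bp downstream of a start of the host Mir99ahg. Farther along, Mir125b-2 had 1 region of 8.12-fold and 4.70-fold.

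Mirlet7c-2 and Mirlet7b on chromosome 15 shared 2 regions. The nearer, 3494 bp upstream of Mirlet7c-2 (chr15:85702355-85703864), had 21.2-fold enrichment in replicate 1 and 14.8-fold in replicate 2, and the other, 22304 bp upstream, 11.0-fold and 6.25-fold. Mirlet7a-1, Mirlet7f-1 and Mirlet7d on chromosome 13 had 1 weak region of 5.97-fold and 5.89-fold. On chromosome 9, Mir125b-1 had regions of 9.45-fold and 5.87-fold and of 8.63-fold and 7.08-fold, whereas its neighbours Mir100 and Mirlet7a-2 had none. Loci with strong regions and loci with weak ones carried the same seeds.

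**Figure D4:**
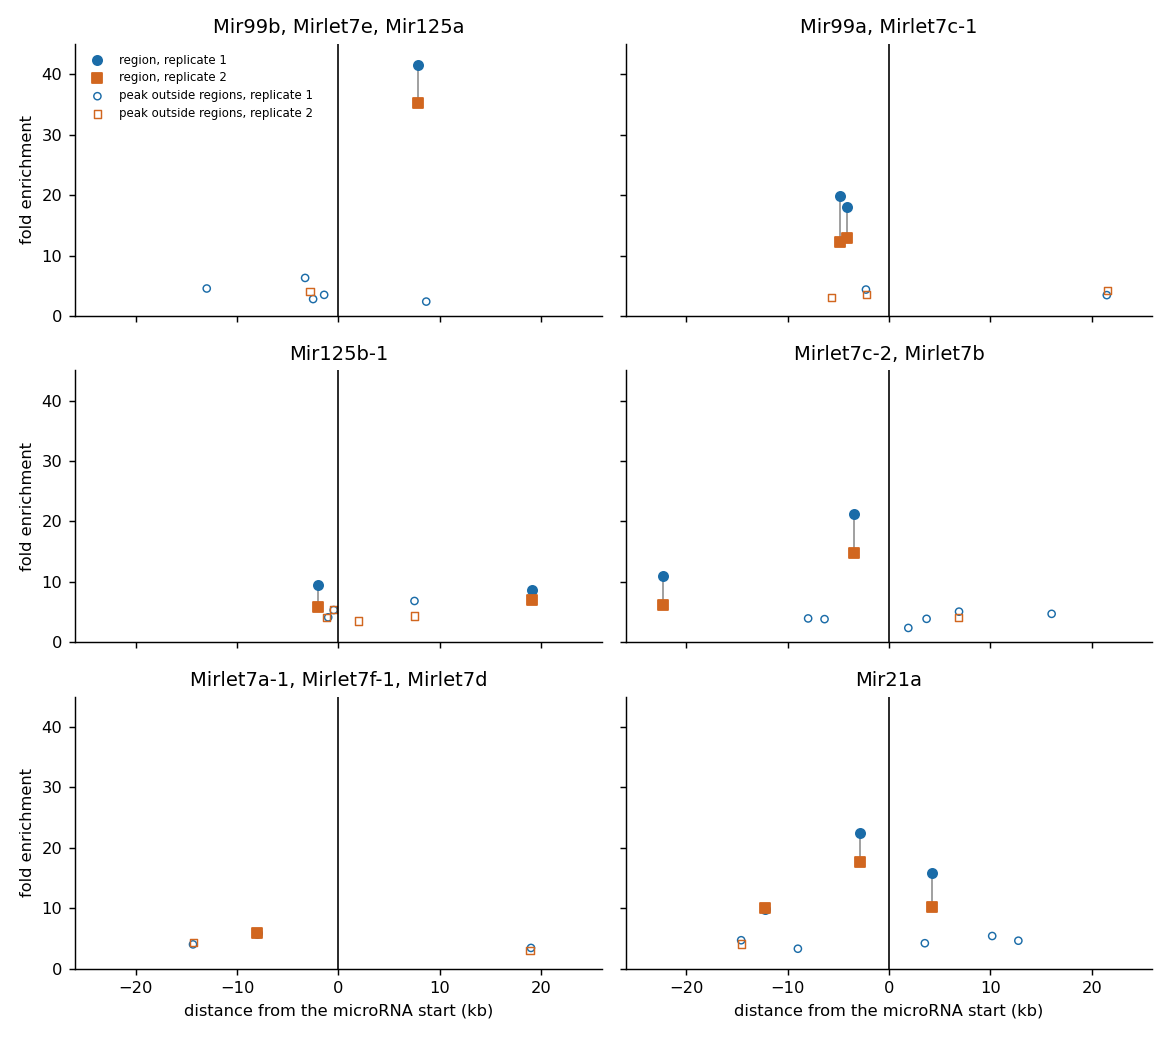
Fold enrichment of regions (filled) and of peaks outside regions (open) within 25 kb of the start of the first microRNA named over each panel, against distance in kb, for replicate 1 (circles) and replicate 2 (squares). The let-7, miR-99 and miR-125 clusters range from 1 region of 41.5-fold and 35.2-fold to 1 of 5.97-fold and 5.89-fold, and Mir21a has 3 regions.

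The lists for other tissues served as a reference. Beside the 33.6% of all annotated microRNAs, 2 of 10 muscle and liver microRNAs (20.0%) and 3 of 7 microRNAs of blood and endothelial cells (42.9%) had a region. None of either list had 1 within 5 kb, beside 10.2% of all annotated microRNAs. The former were Mir499 with 20.8-fold enrichment in replicate 1 and 15.7-fold in replicate 2, and Mir208a with 10.8-fold and 8.93-fold; the liver microRNA Mir122 had none. The latter were Mir155, Mir150 with 10.1-fold and 5.63-fold, and Mir142 with 7.60-fold and 5.87-fold. The share of other cells in the chromatin was not tested. Of 3 miR-34 genes, p53 targets, only Mir34a had 1, with 9.97-fold and 6.46-fold. The lists hold few genes, several genes share a region, and their shares were not tested.

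**Figure D5:**
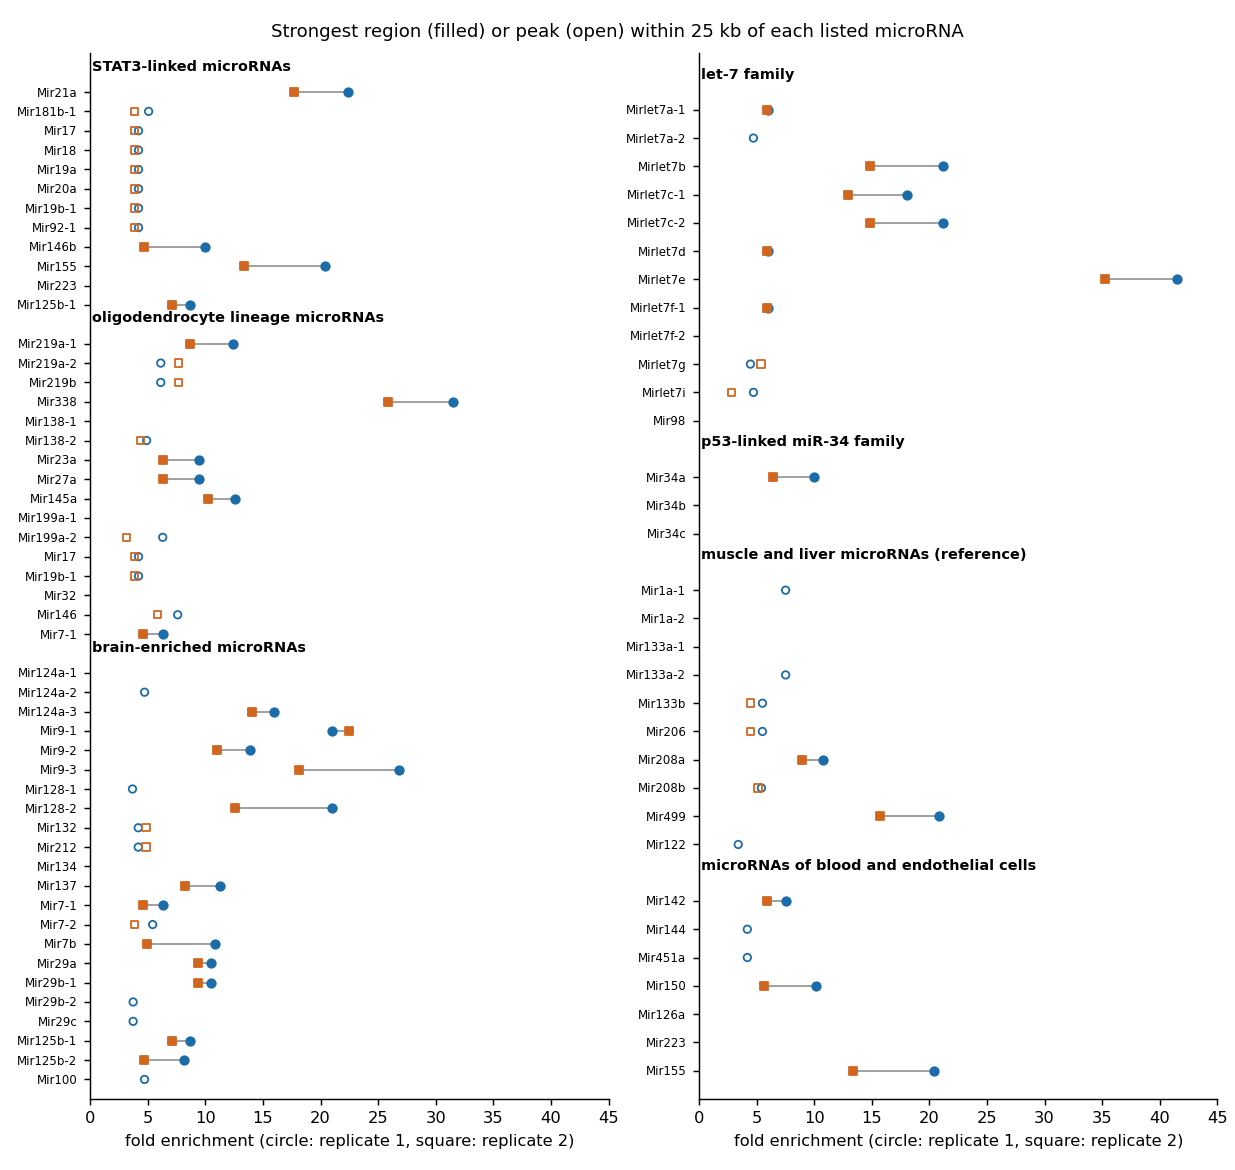
Fold enrichment in replicate 1 (circles) and replicate 2 (squares) of the region with the highest lower fold (filled) within 25 kb of each microRNA of 7 lists, or of the strongest peak of each library where there is no region (open); an empty line has no peak in either list. Mirlet7e and Mir338 have the highest values, and all open symbols lie under 10-fold.

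A few regions lay within 25 kb of several hairpins. Of the members 426 had 1 microRNA within 25 kb, 52 had 2 or more and 10 had 3 or more. The 7 microRNAs from Mir322 to Mir450b on the X chromosome shared 1 region, 137 bp from the start of the noncoding C430049B03Rik, with 10.8-fold enrichment in replicate 1 and 8.45-fold in replicate 2. The 5 genes of the Mir302 and Mir367 cluster, typical of pluripotent cells and carried in an intron of Larp7, shared 1 of 11.9-fold and 8.96-fold. Mir25, Mir93 and Mir106b shared 1 of 8.36-fold and 8.43-fold, 61 bp from the start of Zfp113. Host families recurred as well: Mir26b lies in the phosphatase gene Ctdsp1 and had 3 regions, the strongest of 11.5-fold and 12.8-fold, and Mir26a-2 lies in Ctdsp2, where 3 regions reached 13.6-fold and 11.0-fold. Mir92b, of neural progenitors, had 3 regions within 1318 bp of its start, the strongest near Muc1 with 24.4-fold and 17.1-fold, and the others of 6.00-fold to 7.19-fold in replicate 1. Mir151, in the focal adhesion kinase gene Ptk2, had a region 833 bp downstream with 20.1-fold and 13.2-fold. Chromosome 11 held more members than any other chromosome, 52 of its 880 regions (5.91%), beside 3.71% of all regions. The share on chromosome 19 was 5.84%. Such shares depend also on how many microRNA genes a chromosome carries and where they lie. RefSeq lists 87 on chromosome 11, 36 of them with a region, and 37 on chromosome 19, 14 of them with a region. Chromosome 2 carries 145, of which 17 had a region. In the other direction, 237 microRNAs had 1 region, 71 had 2 and 48 had 3 or more.

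The deposited peak lists held many further peaks near these 356 microRNAs, and most were weak. Replicate 1 had 1096 peaks with a summit within 25 kb of their starts, of which 687 overlapped a peak of replicate 2, 483 lay in a reproducible region and 613 outside. Replicate 2 had 739, of which 703 overlapped a peak of replicate 1, 495 lay in a region and 244 outside. In replicate 1 the median fold was 10.0 for peaks in a region and 3.85 for those outside, and in replicate 2 it was 7.33 and 3.93. The replicate 1 list is longer, with 42189 peaks against 26649. At the weak end, 3 members, beside Mir6942, Mir6346 and Mir6546, had under 3-fold enrichment in both libraries, with 2.87-fold and 2.55-fold at the highest of the 3.

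Promoters under the regions gave a sequence to set beside the signal. RefSeq promoter windows, from 250 bases before to 50 after a gene's start, overlapped member regions in 154 cases. Each was searched for TTCNNNGAA, the general STAT dimer spacing, and for TTCCNGGAA, a stricter form contained in it; both read the same pattern on either strand. TTCNNNGAA was in 21 of the 154 windows (13.6%), beside 15.0% of 2488 windows over any region and 8.30% of all 32851 windows. TTCCNGGAA was in 5 (3.25%), beside 5.63% and 1.15%. Among 46 windows of host genes, 2 held TTCNNNGAA and none TTCCNGGAA.

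The windows with TTCCNGGAA are shown with the match in capitals, as they pair a short sequence with the measured summit of each library; a pair of the 5 belong to the divergent genes Ddx51 and Noc4l and hold the same site, so Ddx51 stands for both. Ddx51 encodes an RNA helicase, Eif3c a translation initiation factor, Icam1 an adhesion molecule of inflamed cells and Rundc1 a RUN-domain protein. The builds are GRCm38.p6 and each sequence is on its gene's strand, 5′ to 3′: chr5:110653201-110653500 (plus), chr7:126566317-126566616 (minus), chr9:21015690-21015989 (plus) and chr11:101424835-101425134 (plus).
Ddx51: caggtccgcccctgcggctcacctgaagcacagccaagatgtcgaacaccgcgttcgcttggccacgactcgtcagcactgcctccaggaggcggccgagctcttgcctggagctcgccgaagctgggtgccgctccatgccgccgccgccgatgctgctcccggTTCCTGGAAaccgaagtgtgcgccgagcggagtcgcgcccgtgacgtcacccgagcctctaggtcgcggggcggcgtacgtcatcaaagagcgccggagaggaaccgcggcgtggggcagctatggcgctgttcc
Eif3c: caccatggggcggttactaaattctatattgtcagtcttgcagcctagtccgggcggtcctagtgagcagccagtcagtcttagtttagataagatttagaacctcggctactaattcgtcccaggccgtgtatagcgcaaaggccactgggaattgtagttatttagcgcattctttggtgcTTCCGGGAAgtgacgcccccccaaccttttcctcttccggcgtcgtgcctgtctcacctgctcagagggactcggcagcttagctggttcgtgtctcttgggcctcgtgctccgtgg
Icam1: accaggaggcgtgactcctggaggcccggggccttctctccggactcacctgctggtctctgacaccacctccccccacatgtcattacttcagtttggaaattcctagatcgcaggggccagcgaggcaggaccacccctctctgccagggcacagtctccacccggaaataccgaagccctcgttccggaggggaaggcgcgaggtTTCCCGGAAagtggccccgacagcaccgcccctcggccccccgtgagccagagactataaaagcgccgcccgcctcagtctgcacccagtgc
Rundc1: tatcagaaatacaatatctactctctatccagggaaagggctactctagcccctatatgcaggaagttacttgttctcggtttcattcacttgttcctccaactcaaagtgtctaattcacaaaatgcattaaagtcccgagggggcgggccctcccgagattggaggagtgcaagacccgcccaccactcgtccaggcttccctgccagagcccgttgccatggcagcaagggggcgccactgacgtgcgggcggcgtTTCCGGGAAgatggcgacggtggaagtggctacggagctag
At Ddx51, 12769 bp from Mir7026, the region had 30.5-fold enrichment in replicate 1 and 19.9-fold in replicate 2, with summits 4 bp and 17 bp from the centre of the match. At Eif3c, 13165 bp from Mir7059, it had 19.9-fold and 15.9-fold, with summits 14 bp and 13 bp away. At Icam1, 16383 bp from Mir1900, it had 12.1-fold and 11.0-fold, with summits 7 bp and 6 bp away. At Rundc1, 5950 bp from Mir6929, it had 18.0-fold and 10.4-fold, with summits 51 bp and 12 bp away. The summits of both libraries thus fell within 51 bp of the match at all 4 sites; each site is nearer to a protein-coding start than to the microRNA, and a match is a description of the letters only.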

How the data were processed

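ChIP-seq of STAT3 phosphorylated at tyrosine 705 was analysed from 2 ChIP libraries. The submitters' processing notes name CASAVA 1.8, Bowtie2, MACS2 and the build GRCm38.p3 without options. Peaks came from the authors as 1 list for each library, with 42189 and 26649 peaks. In them, per the file headers, the pileup is a signal of stacked fragments and the fold enrichment a ratio to local background computed by the authors' peak caller; 2 columns with damaged headers hold −log10 p and −log10 q by the deposited values. The lowest background implied by pileup and fold was 4.72 fragments in replicate 1 and 2.91 in replicate 2, and that is the sole depth measure used here. In the deposited table of 12925 regions, the adjusted p-value column holds the IDR, at most 0.05. Its pileup and fold columns are identical, hold mean −log10 p in 12924 regions within 0.001, and were not used as folds. The position it calls a summit is the midpoint.

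Each region took the fold of the strongest peak of each library sharing at least 1 bp. Distances were measured from the midpoint to transcript starts in the authors' table. Hosts were found by coordinates from the table; RefSeq (GRCm38.p6) gave all microRNA positions, with sequences for 323 of the 356. Python 3.11.15, numpy 2.4.6, pandas 2.3.3 and matplotlib 3.10.9 were used, and simulated data were used to check the matching, with 400 of 400 regions called right. No test was run, since both libraries are from treated cells and the regions were chosen by position; counts stand beside those over all regions. Named microRNAs were the 12 strongest regions, the 12 strongest within 5 kb, the 5 loci with most regions, up to 5 per list, a fixed set that includes Mir21a, Mir338 and the miR-9 genes, and those next to 25 kb; other names were picked with their values in view, and 1 of the strongest regions is not reported here. The regions and lists were chosen with earlier results of these data known. Alternatives covered the IDR, window, position, peak choice and each library alone.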

Additional observations from a re-analysis of the deposited data

How the results depend on the processing

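No paired analysis was possible because the input libraries were not analysed here and the values come from no test. The number of regions depended on the window by construction: 32 at 1 kb, 118 at 5 kb and 225 at 10 kb, with 30, 106 and 197 microRNA genes, 15, 41 and 80 regions of 10-fold or more in both libraries, and 27, 91 and 173 with an IDR of 0.01 or below (host names included). Over all regions 31.1% reached 10-fold in both libraries and 79.3% had such an IDR. The median lower fold was 9.34 at 1 kb, from 32 regions, but 8.32 from the 30 regions left without host names. For the 32 its ratio to the median of all regions was 1.25. The ratio was 1.03 with an IDR of 0.01 or below and 1.03 with pileup in place of fold, beside 1.00 as reported. With 1 library alone, peaks near any listed microRNA start numbered 758 to 1140, regions of 10-fold or more 161 to 245, the median fold 7.59 to 10.1 and its ratio to all regions 0.978 to 1.01. Replicate 1 alone gave the higher count at 10-fold, 245. Peaks near the 356 microRNAs fell to 632 in replicate 1 and 365 in replicate 2 with a −log10 q of 10 or more. Of 76 distinct listed microRNAs 32 had a region within 25 kb and 12 within 5 kb, and 52 to 63 had a peak of 1 library. Mean summits and any base of the hairpin moved no count that was computed by over 1.5 times. For the nearest peak, a larger overlap and leaving out the weakest regions, no counts were computed. With the nearest peak, the larger overlap or the weakest regions left out, the median lower fold was 7.50 to 7.59 and its ratio to all regions 1.00 to 1.01. With any base of the hairpin they were 7.46 and 0.997. Alternatives chosen after seeing the data were RefSeq positions, with 509 regions and 397 microRNA genes, leaving out host names, with 478 regions, and the miR-9 genes, whose 22 regions became 14 within 10 kb, 5 within 5 kb and 21 with an IDR of 0.01 or below, and beside which the libraries alone held 36 to 52 peaks. Without inputs or untreated cells, enrichment that does not come from CNTF-activated STAT3 was not measured, and fold in replicate 2 rests on fewer fragments.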
